A study of Mus musculus with 6 samples.

Results

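The transforming growth factor β (TGFβ) signal reaches the nucleus through the SMAD proteins, and 10 mouse genes of this relay were followed here: *Smad1*, *Smad2*, *Smad3*, *Smad4*, *Smad5*, *Smad6*, *Smad7*, the corepressor genes *Ski* and *Skil*, and the ubiquitin ligase gene *Smurf2*. They were picked by gene symbol. All 10 were found once each among the 25140 genes of the deposited count table, and all 10 passed the filter on low counts that left 14334 genes. Polyadenylated mRNA was sequenced from 3 cultures treated with vehicle and 3 treated with TGFβ at 10 ng/ml for 24 h. By the sample labels this followed 16 h in 1% FBS, while the methods of the study give 24 h in 1% FBS before treatment. The cells are labelled as primary cardiac fibroblasts from adult C57BL/6 hearts at passage 1, and the methods of the study also name cardiac fibroblasts, while its results call the sequenced cells mouse embryonic fibroblasts. Vehicle and TGFβ cultures shared the strain, passage, medium and low serum, and no allele or transgene is named for either.

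Activated TGFβ receptors phosphorylate the receptor-regulated SMADs SMAD2 and SMAD3, and bone morphogenetic protein (BMP) receptors phosphorylate SMAD1 and SMAD5. These join the common partner SMAD4 and act on genes in the nucleus. The inhibitory SMADs, SMAD6 and SMAD7, block the receptors, SKI and its relative SnoN (encoded by *Skil*) hold back SMAD-bound genes, and SMURF2 marks SMADs and receptors for degradation. In cardiac fibroblasts this relay is known for driving the change into contractile, matrix-producing myofibroblasts.

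The libraries held 27851677 to 31072338 counts, and replicates differed by more than sampling of reads alone would give (chi-square per gene 7.95 to 27.1, where 1 is sampling noise). The 7 fibroblast markers were all expressed. They summed to 34559 to 39687 CPM (counts scaled to the size of the library) with vehicle and 38692 to 42234 CPM with TGFβ. Most of this sum was *Col1a1* and *Col1a2*, which were not called by edgeR, at 0.23 and 0.13 on the log2 scale. The other 5 markers fell. Among them *Tcf21*, a transcription factor of heart fibroblasts, went from 299.6 to 307 CPM down to 145 to 149 CPM. DESeq2 and limma-voom each called 6 of the 7 markers. The 6 markers of endothelial cells summed to 419 to 645 CPM with vehicle and 383 to 524 CPM with TGFβ, with 0 of 6 called by edgeR, DESeq2 or limma-voom and 0 at an unadjusted p under 0.05. Of 6 leukocyte markers 5 were listed and summed to 34.8 to 50.02 CPM over the 6 libraries, also with 0 called by edgeR, DESeq2 or limma-voom and 0 at an unadjusted p under 0.05. The 5 cardiomyocyte markers summed to 38.3 to 59.0 CPM with vehicle and 27.1 to 40.1 CPM with TGFβ, nearly all of it *Tnnt2*, while *Myh6*, *Myl2* and *Ryr2* were near 0. *Tnnt2* was at -0.46 on the log2 scale, with an unadjusted p under 0.05, and was called by DESeq2 but not by edgeR or limma-voom. Smooth muscle markers summed to 129.6 to 148 CPM with vehicle and 163 to 224 CPM with TGFβ, pericyte markers to 30.4 to 46.6 and 52.5 to 93.5 CPM, and mesothelial markers to 23.0 to 62.2 and 14.8 to 34.2 CPM. Of 4 genes each, 2 smooth muscle markers and 1 pericyte marker rose by edgeR, and 0 of the mesothelial markers were called by edgeR, DESeq2 or limma-voom, with 1 at an unadjusted p under 0.05. The part of these cell type markers in the values of the 10 genes was not tested. The cultures are bulk samples, so a change in the number of cells of one type and a change in mRNA per cell cannot be told apart.

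Of the 10 genes, 5 changed with TGFβ. *Skil* and *Smurf2*, both brakes on the pathway, rose, and *Smad3*, *Smad1* and *Smad6*, itself a brake, fell. *Smad2*, *Smad4*, *Smad5* and the brakes *Smad7* and *Ski* did not pass the threshold of 0.05 on the adjusted p (edgeR's quasi-likelihood test, Benjamini-Hochberg adjustment over all 14334 genes tested). Over all genes tested 40.7% were called, 20.5% higher and 20.1% lower, so 5 of 10 is near the background. The CPM of the groups did not overlap in 8 of the 10 genes, against 53.3% of all genes tested. The median absolute log2 fold change was 0.18 over the 10 genes and 0.21 over all genes tested. The genes were well covered, with 1377 to 9423 counts per library, and the standard errors of their log2 fold changes lay between 0.03 and 0.08.

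**Figure D1:**
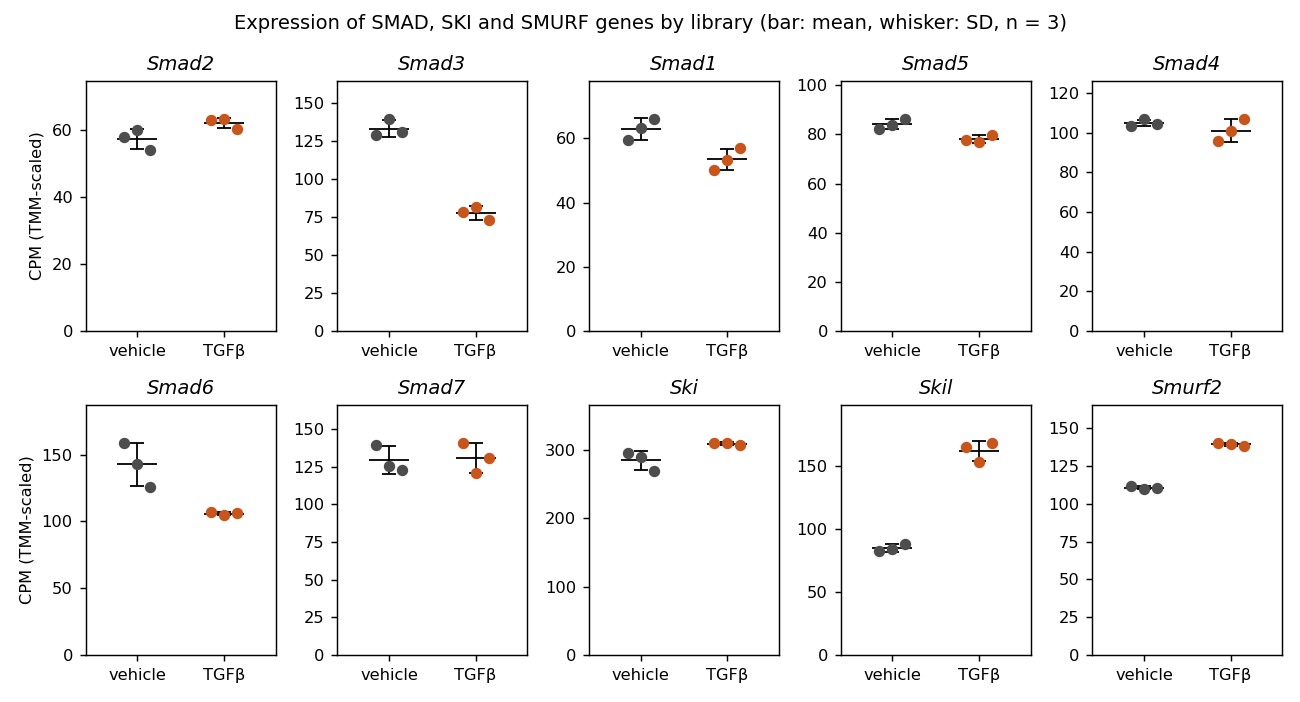
Expression of the 10 genes in CPM (TMM-scaled) in each of 3 vehicle and 3 TGFβ libraries, 1 panel a gene, with each point a library, the bar the mean and the whisker the SD. The groups are far apart for *Skil* (82.2 to 88.0 against 153 to 168 CPM) and *Smad3* (129 to 139 against 73.1 to 81.9 CPM) and overlap for *Smad4* and *Smad7*.

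Within the TGFβ branch, *Smad3* fell and *Smad2* did not pass the threshold. *Smad3* (ENSMUSG00000032402) encodes a receptor-regulated SMAD that binds DNA directly, and lies on chromosome 9 (63646767 to 63757994, minus strand, GRCm38, also called mm10). In the vehicle libraries, given here and below in the order of the totals 31072338, 29296570 and 29331999, it was expressed at 129, 139 and 131 CPM. In the TGFβ libraries, in the order 27851677, 28894151 and 28641986, it was at 78.3, 81.9 and 73.1 CPM. Every TGFβ library lay well below every vehicle library. The mean fell from 133 ± 5.47 to 77.8 ± 4.41 CPM (SD, n = 3 each), which is -0.77 ± 0.05 (SE) on the log2 scale with an edgeR adjusted p = 4.27e-05. Between 2085 and 4132 reads per library stood behind these values.

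The 300 bases around the RefSeq start of *Smad3* (chr9:63757945-63758244, GRCm38.p6, minus strand, 250 bases before the start and 50 after it) are shown because *Smad3* fell most of the 10 genes. They were searched on both strands for the CAGA box of SMAD3 and SMAD4 (CAGACA), a GC-rich SMAD site (GGCGCC), the AP-1 site (TGANTCA) and the palindromic SMAD site (GTCTAGAC), the last added after the promoter of *Smad6* had been seen.
Smad3 promoter: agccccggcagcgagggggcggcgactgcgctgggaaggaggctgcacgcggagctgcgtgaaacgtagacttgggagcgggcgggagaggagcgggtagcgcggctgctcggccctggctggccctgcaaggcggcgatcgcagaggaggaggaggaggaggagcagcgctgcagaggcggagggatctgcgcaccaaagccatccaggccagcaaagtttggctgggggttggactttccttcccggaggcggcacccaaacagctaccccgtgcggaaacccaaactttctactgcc
None of these letters was found in this window, so no base is in capitals. Of all 32851 promoter entries, 21.0% held the CAGA box, 11.9% the GC-rich site, 7.81% the AP-1 site and 0.213% the palindrome.

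*Smad2* (ENSMUSG00000024563, plus strand of chromosome 18) encodes the other TGFβ-branch SMAD. It was at 57.9, 59.9 and 54.1 CPM with vehicle and 62.9, 63.3 and 60.4 CPM with TGFβ. The TGFβ libraries lay just above the vehicle libraries, with 59.9 and 60.4 CPM as the nearest values. The log2 fold change was 0.12 (95% interval 0.01 to 0.23, adjusted p = 0.0867 from edgeR). The share of *Smad3* in the summed level of both genes, per length of exon, was 78.0% to 79.3% with vehicle and 65.7% to 67.2% with TGFβ. Per length, *Smad2* stood at 0.272 of *Smad3* with vehicle and 0.505 with TGFβ. The log2 ratio was 0.90 higher with TGFβ (exact permutation test, two-sided p = 0.1 and 0.1 adjusted over the 6 ratios compared, the lowest that 3 libraries against 3 can give). Their summed level was 29.7 to 32.0 CPM per kb with vehicle and 20.1 to 21.99 CPM per kb with TGFβ.

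Of the BMP-branch SMADs, *Smad1* fell and *Smad5* lay just outside the threshold. *Smad1* (ENSMUSG00000031681, chromosome 8, 79338395 to 79399518, minus strand) was at 59.4, 63.3 and 66.0 CPM with vehicle and 50.3, 53.4 and 57.0 CPM with TGFβ. The groups did not overlap, and the nearest libraries were 57.0 and 59.4 CPM. On the log2 scale the fold change was -0.23 ± 0.06 (SE) with an edgeR adjusted p = 0.0164. The call was lost when any 1 of 4 of the 6 libraries was left out. The adjusted p from edgeR was 0.053 without the vehicle library of 29296570 counts, 0.0514 without that of 29331999, 0.0608 without the TGFβ library of 27851677 and 0.0557 without that of 28894151, with a log2 fold change of -0.29 to -0.19 over all alternatives. *Smad5* (ENSMUSG00000021540, chromosome 13, 56703010 to 56742377, plus strand) was at 82.3, 83.9 and 86.2 CPM with vehicle and 77.6, 77.0 and 79.8 CPM with TGFβ. Its groups did not overlap either. The log2 fold change was -0.11 (95% interval -0.19 to -0.02, adjusted p = 0.0544 from edgeR). It passed the threshold in 4 of 12 alternatives, with an adjusted p of 0.0338 under upper quartile scaling and of 0.142 with DESeq2. Per length, *Smad1* stood at 0.885 of *Smad5* with vehicle and 0.811 with TGFβ. The log2 difference was -0.13 (95% interval -0.26 to 0.0075). An exact permutation test gave a two-sided p = 0.1, and 0.1 adjusted over the 6 ratios, the lowest it can give. With the longest transcript as the length, *Smad1* instead lay above *Smad5*, at 16.7 against 12.8 CPM per kb with vehicle and 14.2 against 11.9 CPM per kb with TGFβ.

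*Smad4* (ENSMUSG00000024515, minus strand of chromosome 18), whose protein is the shared partner of both branches, was at 103, 107 and 104 CPM with vehicle and 95.5, 101 and 107 CPM with TGFβ. The groups overlapped, and both reached 107 CPM. Its log2 fold change was -0.05 with a 95% interval of -0.16 to 0.06 (adjusted p = 0.415 from edgeR).

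Of the inhibitory SMADs, *Smad6* fell, while the groups overlapped for *Smad7*. *Smad6* (ENSMUSG00000036867), the brake best known on BMP signalling, lies on the same strand and chromosome (63953076 to 64022059), 195 kb from *Smad3*. It was at 159, 143 and 126 CPM with vehicle and 107, 104 and 106 CPM with TGFβ. The vehicle libraries were spread widely, the TGFβ libraries lay close together, and the groups did not overlap. The mean fell from 143 ± 16.4 to 106 ± 1.12 CPM (SD, n = 3 each), which is -0.43 ± 0.08 (SE) on the log2 scale with an edgeR adjusted p = 0.00356. With each library left out the log2 fold change stayed between -0.51 and -0.35.

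Endothelial cells are known for strong *Smad6* expression, so their markers are given beside it. They summed to 419, 477 and 645 CPM in the vehicle libraries and 383, 426 and 524 CPM in the TGFβ libraries. In the same order of libraries, *Smad6* was at 159, 143 and 126 CPM with vehicle and 107, 104 and 106 CPM with TGFβ. On the log2 scale *Cdh5* was at -0.38, *Kdr* at -0.36, *Pecam1* at -0.34 and *Tie1* at -0.28, while *Emcn* was at 0.0077 and *Tek* at 0.25 (edgeR adjusted p of 0.144 to 0.972 for the 6 markers). Their part in the *Smad6* values was not tested.

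The 300 bases around the *Smad6* start (chr9:64022010-64022309, GRCm38.p6, minus strand) are shown for the palindromic SMAD site, in capitals, that starts at base 247 and ends just past the start of the transcript.
Smad6 promoter: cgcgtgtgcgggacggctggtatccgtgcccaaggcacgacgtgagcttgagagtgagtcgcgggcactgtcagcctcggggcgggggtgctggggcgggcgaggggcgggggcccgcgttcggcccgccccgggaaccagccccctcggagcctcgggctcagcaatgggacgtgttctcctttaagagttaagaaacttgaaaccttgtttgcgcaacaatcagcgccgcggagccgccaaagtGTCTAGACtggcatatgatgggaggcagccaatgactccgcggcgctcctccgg
The palindrome occurs in 70 of 32851 promoter entries. It was noticed in this sequence and then counted, and it is a match of letters, not a measured binding site. *Smad2*, *Smad4*, *Smad7* and *Skil* had no promoter entry and were not searched for it.

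*Smad7* (ENSMUSG00000025880, plus strand of chromosome 18), the brake on TGFβ receptors and itself a known early SMAD target, was at 139.7, 126 and 123 CPM with vehicle and 141, 121 and 131 CPM with TGFβ. Both groups spanned nearly the same range. On the log2 scale the fold change was 0.02 (95% interval -0.15 to 0.18, adjusted p = 0.881 from edgeR), and its sign turned to -0.01 under upper quartile scaling. Only 24 h was sampled. The log2 ratio of *Smad7* to *Smad6* was 0.44 higher with TGFβ and that of *Smad7* to *Smad3* 0.79 higher, each with groups apart (exact permutation test, two-sided p = 0.1 and 0.1 adjusted over the 6 ratios, the lowest it can give). Per length, *Smad7* stood at 1.19 times *Smad3* with vehicle and 2.06 times with TGFβ. The inhibitory pair together went from 66.4 to 80.4 CPM per kb with vehicle to 59.3 to 64.4 CPM per kb with TGFβ.

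**Figure D2:**
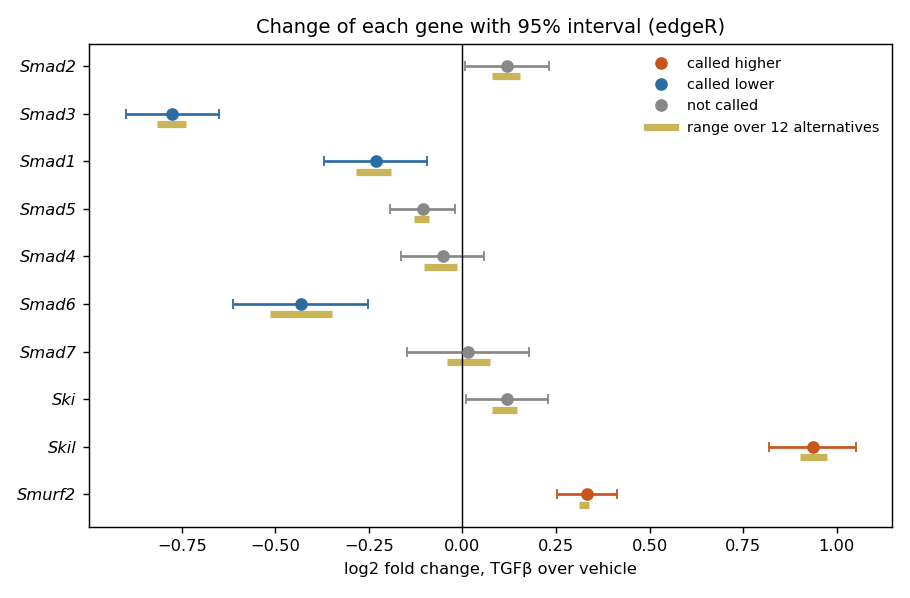
Log2 fold change with TGFβ of the 10 genes (points) with its 95% interval (whisker) from edgeR, coloured by call, and the range over 12 alternatives of scaling, tool, filter and libraries left out (bar). *Skil* at 0.94 and *Smad3* at -0.77 lie farthest from 0, and the intervals of *Smad4* and *Smad7* span 0. Those of *Smad2*, *Smad5* and *Ski* do not span 0 although these genes were not called, since the intervals are not adjusted for the number of genes tested.

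*Skil* rose most of the 10 genes. *Skil* (ENSMUSG00000027660, chromosome 3, 31095058 to 31122577, plus strand) encodes SnoN, a corepressor that binds SMADs and that SMADs are known to induce. It was at 82.2, 84.0 and 88.0 CPM with vehicle and 165, 153 and 168 CPM with TGFβ. The lowest TGFβ library was far above the highest vehicle library. The mean rose from 84.8 ± 2.97 to 162 ± 7.82 CPM (SD, n = 3 each), 1.91-fold or 0.94 ± 0.05 (SE) on the log2 scale, with an edgeR adjusted p = 1.31e-05. Over the 12 alternatives the log2 fold change stayed between 0.90 and 0.97.

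*Ski* (ENSMUSG00000029050, chromosome 4, 155154075 to 155222592, minus strand), the related corepressor, was the most counted of the 10 genes. It was at 296, 290.0 and 269 CPM with vehicle and 311, 311 and 308 CPM with TGFβ. The groups did not overlap, but the vehicle libraries were spread over more than the gap between the groups. The log2 fold change was 0.12 (95% interval 0.01 to 0.23, adjusted p = 0.0789 from edgeR), not past the threshold in any of 12 alternatives. The log2 ratio of *Skil* to *Ski* was 0.81 higher with TGFβ (exact permutation test, two-sided p = 0.1 and 0.1 adjusted over the 6 ratios, the lowest it can give). *Skil* made up 13.7% to 15.8% of the summed level of both per length with vehicle and 22.1% to 23.9% with TGFβ.

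*Smurf2* (ENSMUSG00000018363, chromosome 11, 106820066 to 106920715, minus strand) encodes a ubiquitin ligase that SMAD7 recruits to the receptors. It was at 112, 109.9 and 111 CPM with vehicle and 140.4, 139.8 and 138 CPM with TGFβ. The groups did not overlap, with 112 and 138 CPM as the nearest values. The coefficient of variation was 0.713% for vehicle and 0.810% for TGFβ. At 3261 to 3940 counts per library, sampling of reads alone would give more spread than that. The closeness of these replicates is therefore no measure of how far apart the groups lie. On the log2 scale the fold change was 0.33 ± 0.03 (SE) with an edgeR adjusted p = 0.000262, a rise of 25.9%. The log2 ratio of *Smurf2* to *Smad7* was 0.32 higher with TGFβ, with groups apart (exact permutation test, two-sided p = 0.1 and 0.1 adjusted over the 6 ratios, the lowest it can give). The window around its start (chr11:106920666-106920965, GRCm38.p6, minus strand) is shown for its matches, all in capitals. It held the CAGA box at base 278, past the start of the transcript, and the GC-rich SMAD site at 2 places. Of the 6 members with a promoter entry only *Smurf2* held the CAGA box, which 21.0% of all promoter entries held. The members without an entry, named above, were not searched.
Smurf2 promoter: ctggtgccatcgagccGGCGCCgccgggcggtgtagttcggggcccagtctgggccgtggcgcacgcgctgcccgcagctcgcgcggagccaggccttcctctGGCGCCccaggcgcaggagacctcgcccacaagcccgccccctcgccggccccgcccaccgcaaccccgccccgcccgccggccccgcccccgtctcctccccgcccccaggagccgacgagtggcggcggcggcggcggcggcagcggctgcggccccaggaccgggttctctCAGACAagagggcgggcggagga
*Ski* held the GC-rich site once, 2 of 3 *Smad5* entries held it once, and the *Smad1* entry held none of the letters searched. G and C made up 80.3% of the *Smurf2* window and 85.3% of the *Ski* window, against a median of 52.7% over all promoter entries. These matches are descriptions of the letters and not of binding.

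Levels of different genes were set side by side per length of exon, and *Ski*, *Smad6* and *Smad7*, all brakes, led the order in both groups. In vehicle cultures the order of levels was *Ski* (51.3 ± 2.55 CPM per kb), *Smad6* (44.5 ± 5.13), *Smad7* (28.6 ± 1.99), *Smad4* (28.2 ± 0.462), *Smad3* (24.0 ± 0.986), *Smurf2* (18.0 ± 0.128), *Smad5* (11.3 ± 0.268), *Smad1* (10.05 ± 0.531), *Skil* (8.74 ± 0.307) and *Smad2* (6.53 ± 0.339), all levels with SD and n = 3. Only *Ski* and *Smad6*, and *Smad7* and *Smad4*, overlapped among neighbours in that order. With TGFβ, *Smad3* moved from the fifth to the seventh place (14.0 ± 0.795 CPM per kb) and *Skil* from the ninth to the sixth (16.7 ± 0.807 CPM per kb), so that *Skil* lay above *Smad3* in all 3 TGFβ libraries and below it in all 3 vehicle libraries. Only *Smad7* and *Smad4* still overlapped as neighbours. With the longest transcript as the length, *Smad1* stood above *Smad5* in both groups instead of below it, and *Smad4* above *Smad7* with vehicle.

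**Figure D3:**
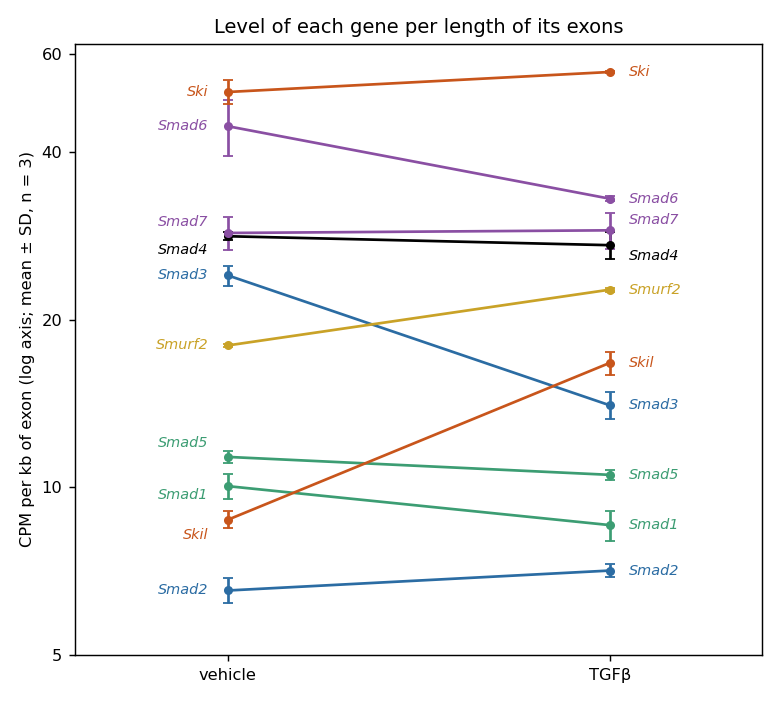
Mean level of each gene in CPM per kb of exon (log axis, whiskers SD, n = 3) with vehicle and with TGFβ, coloured by role. The lines of *Skil* (8.74 to 16.7) and *Smad3* (24.0 to 14.0) cross.

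**Figure D4:**
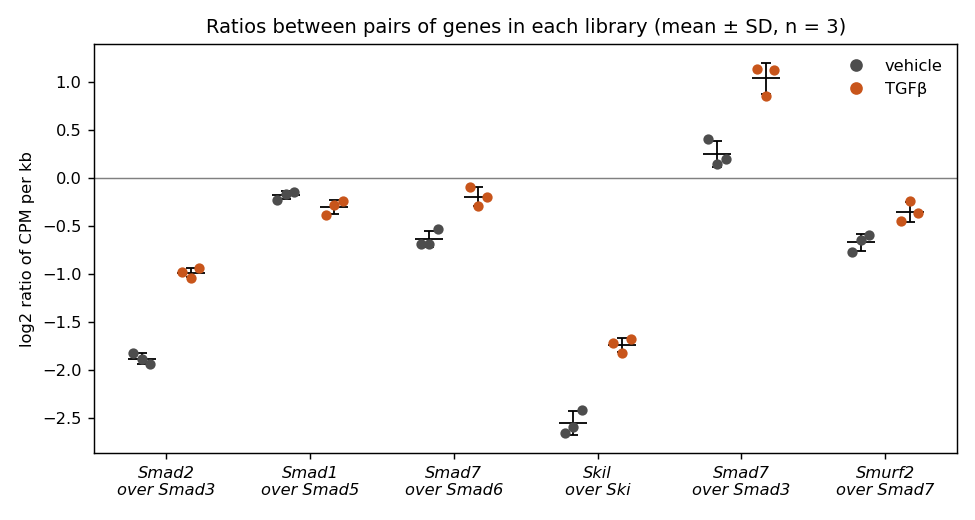
Log2 ratio of CPM per kb for 6 pairs of genes in each vehicle and TGFβ library, with the mean and SD (n = 3). The groups do not overlap in any of the 6 pairs, which share genes and were chosen with earlier results known. The share over other pairs of genes was not computed. For single genes tested, the groups did not overlap in 53.3%. Their means differ by 0.90 for *Smad2* over *Smad3* and by -0.13 for *Smad1* over *Smad5*. For *Smad1* over *Smad5* the nearest libraries are close, at -0.225 with vehicle and -0.242 with TGFβ.

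Of the 10 genes, 5 have another of them on the same chromosome. *Smad3* and *Smad6*, which both fell, lie 195 kb apart on chromosome 9, with no tested gene between them and only 2 pseudogenes (4 and 12 counts over the 6 libraries) and a lincRNA (49 counts) listed there. *Smad2*, *Smad4* and *Smad7*, none of which was called, lie within 2.67 Mb of chromosome 18. Over all genes tested 20.1% were called lower, and 40.7% were called in either direction. The part of position in these values was not tested. All 10 are protein-coding, and 0% of the 75-base windows of their longest transcripts occurred in transcripts of other genes. Annotated genes that overlap them held at most 0.0141% as many counts.

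Of 85 other genes of the pathway, sorted into 8 lists by role, 81 were tested, and 26 rose and 16 fell. That is 51.9% called, against 40.7% of all genes tested. Their median log2 fold change was 0.07, against -0.0013 over all genes tested. *Skor1*, *Foxh1* and *Runx3* were below the filter and *Skor2* was not found in the table. The genes named here are from the called ones with the largest changes in each list, at most 4 a list.

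Upstream of the SMADs, receptor genes went both ways, with 4 of 12 higher, 3 lower and a list median of 0.02 on the log2 scale. *Tgfbr3*, which encodes the TGFβ co-receptor betaglycan, fell from 69.8 ± 6.37 to 21.5 ± 1.57 CPM (log2 fold change -1.70, adjusted p = 8.73e-06 from edgeR). *Acvr1b*, an activin receptor gene that signals to SMAD2 and SMAD3, fell from 62.1 ± 3.08 to 31.5 ± 2.47 CPM (log2 fold change -0.98). *Acvrl1*, the gene of the receptor ALK1, fell from 277 ± 18.2 to 198 ± 16.3 CPM. *Bmpr1b*, a BMP receptor gene, rose from 1.04 ± 0.360 to 2.81 ± 0.166 CPM, a low level in both groups. Of the 11 genes of anchors and receptor-level regulators 5 rose and 1 fell, with a median of 0.15. *Pmepa1*, which encodes a decoy that keeps SMAD2 and SMAD3 from their receptor, rose from 347 ± 18.2 to 1018 ± 82.0 CPM (log2 fold change 1.55, adjusted p = 8.51e-06 from edgeR). *Ldlrad4*, which encodes a relative of that decoy, rose from 37.0 ± 1.27 to 74.4 ± 2.80 CPM. *Bambi*, the gene of a pseudoreceptor, rose from 5.89 ± 0.933 to 7.94 ± 0.265 CPM, and *Dab2*, an endocytic adaptor gene, fell from 94.4 ± 3.80 to 61.0 ± 2.23 CPM.

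Among nuclear transport genes 1 of 6 was called, the lowest share of the lists (16.7%, against 40.7% of all genes tested). It was the exportin gene *Xpo1* at 0.17 on the log2 scale. The log2 fold changes of the 6 genes ran from 0.07 to 0.17, with a median of 0.08. Among 14 genes of ubiquitin ligases and deubiquitinases 4 rose and 2 fell (42.9% called, near the share over all genes), with a median of 0.10. *Nedd4l*, a relative of *Smurf2* whose product turns over activated SMAD2 and SMAD3, fell from 49.3 ± 1.29 to 27.3 ± 0.0994 CPM (log2 fold change -0.85, adjusted p = 8.73e-06 from edgeR), and *Wwp1*, of the same ligase family, had a log2 fold change of -0.40. *Usp9x*, the gene of a deubiquitinase of SMAD4, rose by 0.58 and *Rnf11* by 0.57 on the log2 scale. Of 12 corepressor genes tested 4 rose and 2 fell, with a median of 0.02. *Tgif1*, a corepressor gene, rose by 0.54 on the log2 scale, and *Zeb2* at -0.62 and *Sin3a* at -0.25 fell. Coactivators and DNA-binding partners had 2 of 7 higher, *Runx1* at 0.60 and *Runx2* at 0.53, and 1 lower, the acetyltransferase gene *Kat2b* at -0.63, with a median of -0.03.

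The lists of target genes had the medians farthest from 0, on opposite sides. The lists were chosen with earlier results of these data known, so this contrast is a description and not a test. Of 12 targets of TGFβ-branch SMADs 8 rose, 1 fell, at -0.59 on the log2 scale, and 3 were not called, with a median of 0.78. *Ctgf*, a matricellular protein gene, rose from 1102 ± 100.2 to 3085 ± 239 CPM (log2 fold change 1.49, adjusted p = 2.03e-05 from edgeR), and *Timp1*, a metalloproteinase inhibitor gene, rose from 308 ± 43.1 to 806 ± 123 CPM. *Pmepa1* and *Ldlrad4* belong to this list as well as to that of the receptor-level regulators. Of 10 targets of BMP-branch SMADs 6 fell and 1 rose, with a median of -1.01. *Id2*, which encodes an inhibitor of basic helix-loop-helix factors, fell from 80.0 ± 1.37 to 31.8 ± 1.37 CPM (log2 fold change -1.33, adjusted p = 3.66e-06 from edgeR). Its relative *Id4* fell from 19.6 ± 1.82 to 7.42 ± 0.354 CPM and the transcription factor gene *Atoh8* from 154 ± 21.2 to 68.9 ± 5.45 CPM. The riser was *Bambi*.

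*Smad9*, in that list as a BMP target, encodes the last receptor-regulated SMAD of the BMP branch. It lies on chromosome 3 (54755582 to 54801257, plus strand) and was at 11.8, 12.2 and 12.8 CPM with vehicle and 3.95, 5.44 and 4.42 CPM with TGFβ. The groups were far apart, with 362 to 381 reads per vehicle library and 108 to 152 per TGFβ library. The log2 fold change was -1.41 ± 0.12 (SE) with an edgeR adjusted p = 9.72e-05. Among the receptor-regulated SMADs *Smad3* and *Smad9* thus fell, and *Smad1* fell with a call lost when any 1 of 4 libraries was left out. *Smad5* was lower with groups apart but not called, and *Smad2* was not called. Over all genes tested 20.1% were called lower.

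**Figure D5:**
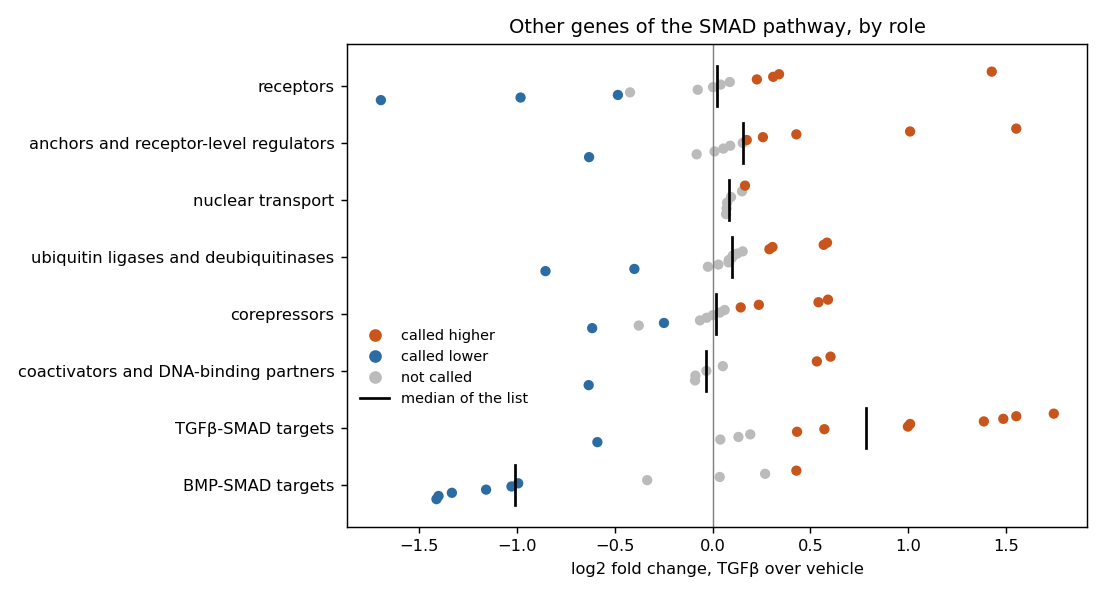
Log2 fold change with TGFβ of the tested genes of 8 pathway lists (1 point a gene, coloured by the edgeR call, black line the median of the list). Targets of TGFβ-branch SMADs sit mostly to the right (median 0.78) and those of BMP-branch SMADs mostly to the left (median -1.01).

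The genes whose pattern over the 6 libraries was most like that of a member were looked up for *Smad3* and *Smad7* among 10372 other genes of at least 5 CPM. For *Smad3* these were *Sash1* (Pearson r = 0.9998 of log2 CPM), *Btbd3* (r = 0.9997) and *Casp12* (r = 0.9995), and 935 genes had an r above 0.95. For *Smad7* they were *Bcas2* (r = 0.9745), *Atg4b* (r = 0.9669) and *Ift43* (r = 0.9643), the 3 genes above 0.95. These r values are descriptions over 6 libraries that share 2 treatment groups.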

How the data were processed

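RNA-seq libraries were made from polyadenylated RNA with a stranded kit and read as 75-base single ends. The authors deposited raw counts per gene, without normalization, in a table made for DESeq2 (genome build mm10, per the labels). The aligner, counter, annotation and use of strand are not given in the sources used here. The same table holds the authors' mean and comparison columns (fold changes and p-values), which were not used. Since the count columns give a group without a replicate number, each library is called by its total count. The labels number 3 samples per group, and p-values measure the spread between these samples.

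Counts of 25140 genes were filtered with filterByExpr (14334 kept), scaled by TMM and tested with edgeR 4.0.16 in R 4.3.3 (quasi-likelihood test, Benjamini-Hochberg adjustment, threshold 0.05, biological coefficient of variation 7.97%). Alternatives used DESeq2 1.42.0, limma 3.58.1 (voom), other scalings and filters, and left out each library. Levels per kb used exon lengths from GENCODE M21, in which 25086 gene identifiers matched. Promoters came from RefSeq (GRCm38.p6), with entries for 6 of the 10 genes and none for *Smad2*, *Smad4*, *Smad7* and *Skil*. The members, lists, ratios and the rule for named genes (the members, at most 4 called genes with groups apart of each list, and the 3 most alike genes for *Smad3* and *Smad7*) were chosen with earlier results of these data known. Some genes that this rule names are not reported here. Precision is limited by 3 libraries a group.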

Additional observations from a re-analysis of the deposited data

How the results depend on the processing

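No paired analysis was possible because the count columns carry no replicate numbers. Over 12 alternatives for each of the 10 genes, 108 of 120 log2 fold changes kept their direction and their side of the threshold. *Smad3*, *Smad6*, *Skil* and *Smurf2* were called in all of them, *Smad1* lost its call when any 1 of 4 libraries was left out, and *Smad5* passed in 4 alternatives. The sign of *Smad7* turned to -0.0054 under upper quartile scaling and ranged from -0.041 to 0.074 on the log2 scale with 1 library left out, negative without the vehicle library of 29296570 or 29331999 counts or the TGFβ library of 27851677. The number of the 10 genes called was 4 to 6 under other scalings, tools, filters and with libraries left out, and 2 with a minimum change of 0.5 on the log2 scale. The number called over all genes moved too. It was 4489 of 14553 without the vehicle library of 29296570 counts and 5840 of 14334 with DESeq2 size factors in edgeR. For the minimum change of 0.5 no share over all genes was computed. Pathway genes called numbered 37 to 44 under other scalings, tools, filters and with libraries left out. At an edgeR adjusted p under 0.01 they numbered 35, and no share over all genes was computed at that threshold. With the longest transcript as length, mean levels over the 6 libraries were 7.39 CPM per kb for *Smad2*, 20.7 for *Smad3*, 15.4 for *Smad1*, 12.3 for *Smad5*, 30.4 for *Smad4*, 18.4 for *Skil* and 23.7 for *Smurf2*, since their longest transcripts are shorter than their summed exons. The 10 genes had at least 1377 reads in each library. Replicates differed by more than sampling noise on average over all genes compared, which was not computed for the 10 genes alone.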
